A study of Mus musculus with 81 samples.

Results

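The 9 microbicidal enzyme genes Nos2, Ass1, Gch1, Acod1, Ido1, Cybb, Cyba, Ncf1 and Ncf4 were followed through every library of the study. They were chosen by symbol and are 9 of the 54079 genes listed in every library. RNA-seq was available from 81 libraries of mouse myeloid cells with or without a myeloid deletion aimed at both genes of the replacement histone H3.3, and 79 of them fell into 27 groups. WT mice carried floxed copies of both H3.3 genes (H3f3a fl/fl and H3f3b fl/fl), to which the H3.3cKO (cKO) mice added LysM cre/cre, a Cre inserted into both copies of Lyz2 that acts in macrophages and granulocytes. Mice were on the C57BL/6 background and 8 to 10 weeks old, and bone marrow was grown into macrophages (BMDMs) in L929-conditioned medium. The 5 experiments were a time course (WT and cKO on days 3, 5 and 7), day 8 BMDMs untreated or given IFN-γ for 12 h, peritoneal macrophages, BMDMs grown with no antibody, an IgG1 κ control antibody or an IFNAR1 antibody (10 μg/mL, lysed on day 6), and 3 sets of WT and cKO BMDMs, told apart by the wording of their titles, with 3 double knockouts. The double knockouts carried the cKO alleles and a germline loss of Sting (StingKO), Mavs (MavsKO) or Irf7 (Irf7KO). Each group held 3 biological replicates, except the cKO groups of day 8, which held 2.

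The 9 genes make reactive or antimicrobial small molecules. Nos2 encodes the inducible nitric oxide synthase, which makes nitric oxide from arginine. Ass1 encodes argininosuccinate synthase, which with Asl rebuilds arginine from citrulline, and Gch1 encodes GTP cyclohydrolase, the first enzyme of the pathway to tetrahydrobiopterin, a cofactor of nitric oxide synthase. Acod1 (Irg1) makes itaconate from cis-aconitate in mitochondria, and Ido1 opens the tryptophan to kynurenine pathway. Cybb (gp91phox) and Cyba (p22phox) form the membrane core of the phagocyte NADPH oxidase, and Ncf1 (p47phox) and Ncf4 (p40phox) are cytosolic subunits that join it on activation. IFN-γ is the classical inducer of Nos2 in macrophages, whereas the oxidase subunits are made by resting phagocytes too.

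Counts on genes, in mega-counts (M), ranged from 3.61 M to 45.6 M per library (median 18.3 M). H3f3a mRNA in cKO groups was 6.94 to 27.3% of the WT mean, and Lyz2 at most 0.271%. The cKO groups thus differ from WT in Cre and in Lyz2 as well as in H3.3, and these cannot be told apart here. H3f3b counts were 75.1 to 89.5% of WT in the cKO groups outside the antibody experiment and 11.5 to 13.3% within it. The study notes that deletion of this gene was complete in some cKO samples and partial in others. It also reports depletion of H3.3 in cKO BMDMs by qRT-PCR and RNA-seq for mRNA and by western blot for protein. The counts here are over the whole gene, and reads inside and outside the deleted region were not separated. They are thus not a measure of intact H3f3b mRNA. All 8 macrophage markers were detected in every group, and the peritoneal macrophage markers summed to 20000 to 23800 CPM (counts per M of normalised library size) in the WT peritoneal libraries and to at most 34.5 CPM in the cultures. Summed neutrophil markers were 1870 to 4450 CPM on day 3 and 110 to 333 CPM on day 7. In the labels of 2 cKO day 8 libraries, the title and the library name disagreed on IFN-γ, and these libraries were left out of every comparison. Replicate 1 of cKO with IFN-γ stood apart from the rest: it had 3.61 M counts, 57.1% unmapped reads against 12.6 to 17.8% in the other libraries labelled IFN-γ, and a chi-square per degree of freedom of 332 against its partner, where other groups had 3.67 to 178. WT libraries of sets 1 and 3 with the same number differed by 16.2 to 49.2 per degree of freedom, against 49.1 to 63.0 between libraries within WT set 1 and 139 to 279 against WT set 2; whether sets 1 and 3 share material is not given in the labels.

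The genes lie, in GRCm38 (mm10), as follows. Nos2 is on chr11:78920787-78960254, Ass1 on chr2:31470207-31520672, Gch1 on chr14:47153895-47189413, Acod1 on chr14:103046977-103056573 and Ido1 on chr8:24584136-24597009. Cybb is on chrX:9435252-9487771, Cyba on chr8:122424776-122432930, Ncf1 on chr5:134220053-134229625 and Ncf4 on chr15:78244801-78262580. All 9 are annotated as protein coding, and the counts cover their exons. Of the exonic bases of Ncf1, 408 (11.14%) overlap Gtf2ird2 on the opposite strand, and the counts ignored strand, so that reads there cannot be assigned to one or the other. Ass1 has a processed pseudogene copy, Gm5424 (chr10:62071123-62072362), with at most 1.94 CPM in any library.

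The sequence before the start of transcription is shown for 3 members that rose with IFN-γ (RefSeq, GRCm38.p6, the 250 bases upstream, 5′ to 3′ on the gene's strand), because they differ in the interferon-related motifs they hold. The motifs searched on both strands were the core of an interferon-stimulated response element (ISRE; GAAA, 2 free bases, GAAA), the gamma-activated sequence (GAS; TTCNNNGAA) and the core bound by the myeloid factor PU.1 (GAGGAA). Capitals mark ISRE and GAS matches.
Cybb, chrX:9469325-9469574, minus strand: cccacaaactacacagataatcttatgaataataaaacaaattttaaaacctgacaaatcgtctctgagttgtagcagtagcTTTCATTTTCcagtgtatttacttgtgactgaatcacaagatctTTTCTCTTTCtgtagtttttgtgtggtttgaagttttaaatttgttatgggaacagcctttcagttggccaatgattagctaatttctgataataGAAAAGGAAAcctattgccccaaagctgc
Ncf1, chr5:134229626-134229875, minus strand: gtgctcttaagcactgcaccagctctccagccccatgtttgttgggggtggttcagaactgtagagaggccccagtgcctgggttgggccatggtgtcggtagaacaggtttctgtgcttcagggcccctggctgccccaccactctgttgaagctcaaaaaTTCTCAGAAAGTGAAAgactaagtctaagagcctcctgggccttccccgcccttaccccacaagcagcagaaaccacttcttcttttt
Gch1, chr14:47189414-47189663, minus strand: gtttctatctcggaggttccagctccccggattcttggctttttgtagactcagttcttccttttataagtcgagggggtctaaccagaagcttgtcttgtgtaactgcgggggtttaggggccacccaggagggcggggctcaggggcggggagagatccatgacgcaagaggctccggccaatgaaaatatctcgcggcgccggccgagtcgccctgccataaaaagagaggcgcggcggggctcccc
Cybb held 3 ISRE cores, at -168 to -159, -124 to -115 and -29 to -20 from the start. In Ncf1, a GAS at -88 to -80 and an ISRE core at -82 to -73 overlapped. Gch1 held neither motif. Among 32851 promoters of the same length, 2.98% held the ISRE core, 7.02% the GAS and 23.3% the PU.1 core. Of the 9 members 6 had an entry; Ass1, Acod1 and Cyba had no ISRE core or GAS, and Acod1 held a PU.1 core at -208 to -203, while Nos2, Ido1 and Ncf4 were not searched. A match is a description of the letters and was not tested for binding.

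**Figure D1:**
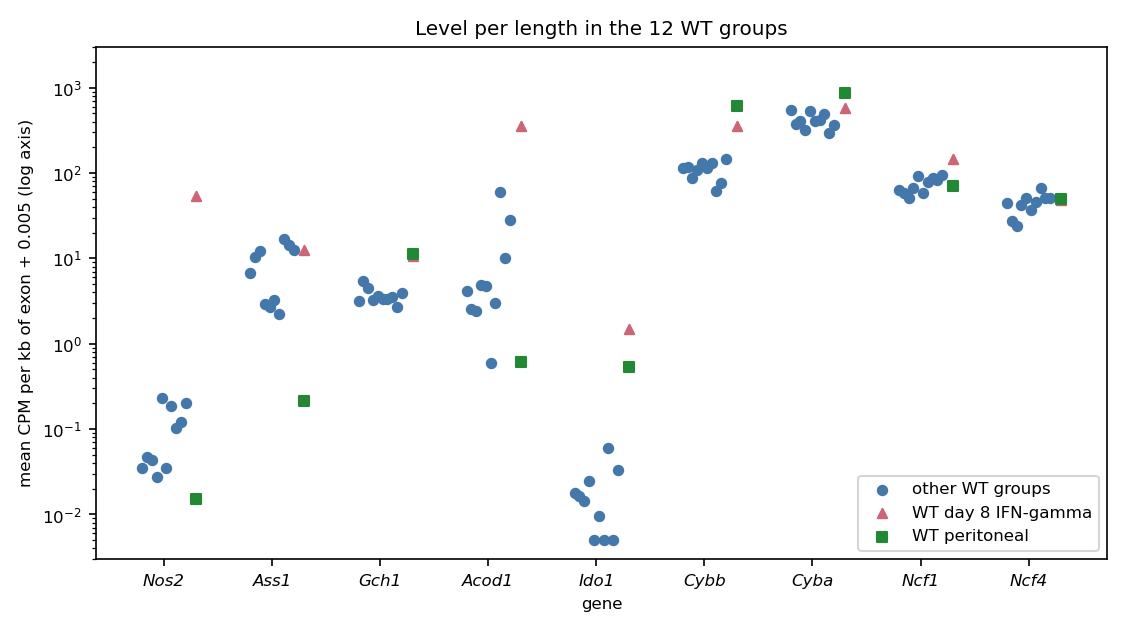
Mean level of each gene in the 12 WT groups, in CPM per kb of exon plus 0.005 on a log axis, with 1 point per group, triangles for day 8 with IFN-γ and squares for peritoneal macrophages. Cyba is the highest (298 to 864), and Nos2 and Ido1 have the lowest medians (0.0698 and 0.0121).

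Per length, the oxidase genes had the highest medians over the 12 WT groups, but not the highest level in every group. In WT with IFN-γ, Acod1 (354.8 CPM per kb) was above Ncf1 (147.1), and Nos2 (53.83) was above Ncf4 (48.06). In cKO on day 3, Acod1 (164.7) was second to Cyba. Among the 12 WT groups, the mean level of Cyba ran from 298 to 864 CPM per kb of exon (median 413), and Cyba was the highest of the 9 members in all 27 groups. Cybb had a median of 115 CPM per kb, Ncf1 of 74.7 and Ncf4 of 46.8, followed by Ass1 (8.57), Acod1 (4.39) and Gch1 (3.59). Nos2 (0.0698) and Ido1 (0.0121) were close to absent in most WT groups. Experiments were normalised separately, so that orders across them are descriptive. When all 27 groups were ordered by mean level, 23 to 26 of the 26 neighbouring pairs of each gene overlapped between libraries.

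The question of the day 8 experiment was how WT and cKO BMDMs respond to IFN-γ. Whole-gene H3f3b counts were at 80.0% of WT in the untreated and 89.5% in the treated cKO cells. Of the 7 members with reads in the untreated cells, the same 6 rose in WT and in cKO BMDMs (Ass1, Gch1, Acod1, Cybb, Cyba and Ncf1), and Ncf4 did not pass in either. Nos2 and Ido1, with at most 5 reads in any untreated library, passed the filter on low counts only through the treated libraries and so had to differ; they are described by their values. Over all 13075 genes tested, 38.9% passed in WT and 33.9% in cKO, with 19.5% higher in WT and 17.5% higher in cKO. The median log2 fold change of the 7 members was 1.72 in WT and 1.496 in cKO, against -0.01 and -0.02 over all genes.

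**Figure D2:**
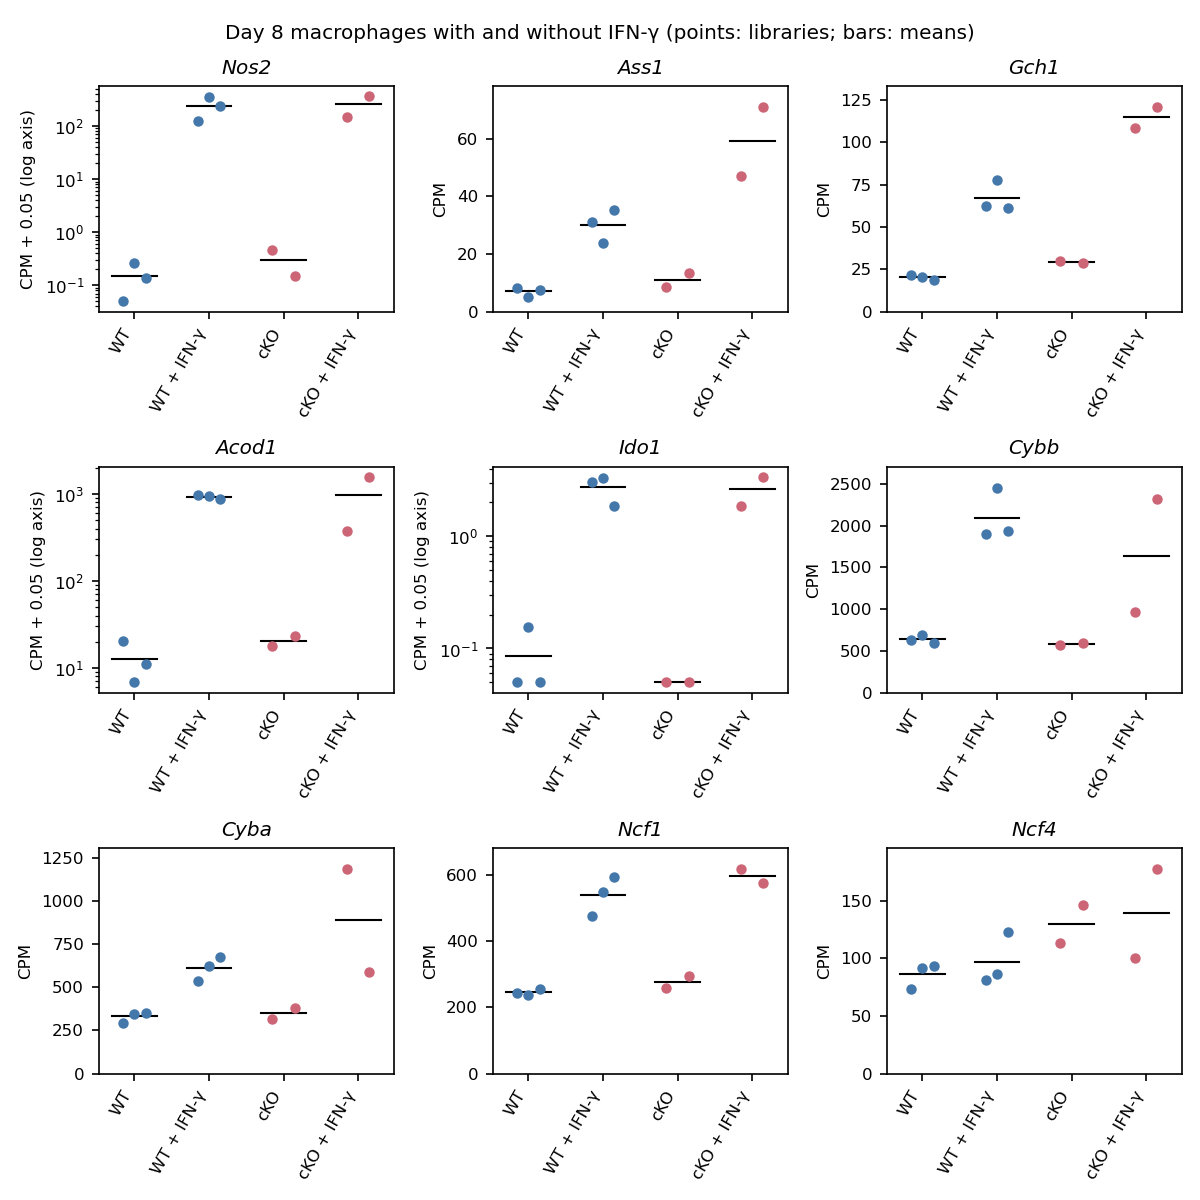
CPM of the 9 genes in each day 8 library, with WT in blue and cKO in red, points for libraries and bars for means; Nos2, Acod1 and Ido1 are on a log axis with 0.05 added. All treated libraries lie above all untreated ones for every gene except Ncf4.

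Untreated WT libraries held, for Nos2, 0, 0.212 and 0.0875 CPM (3 reads in all), and treated ones held 122.7, 356.0 and 233.8 CPM. In cKO the values were 0.406 and 0.0978 CPM before and 146.1 and 363.5 CPM after. The ratio of the summed counts was 2250-fold in WT (95% exact interval 768 to 10900) and 1230-fold in cKO (566 to 3360), with intervals that cover counting error only. All treated libraries lay above all untreated ones in both genotypes.

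Acod1, the itaconate gene, measured 20.3, 6.80 and 10.9 CPM in untreated WT and 976.1, 947.0 and 869.1 CPM after IFN-γ, a log2 fold change of 6.20 ± 0.590 (SE, adjusted p = 3.35e-05). In cKO it went from 17.8 and 22.98 CPM to 374.9 and 1553 CPM, a log2 fold change of 5.57 ± 0.700 (adjusted p = 0.000302). The lower of the treated values is that of the library that stood apart.

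Ido1 stayed low throughout. It had 1 read in the 3 untreated WT libraries and 28, 22 and 15 reads (3.001, 3.27 and 1.81 CPM) in the treated ones, a ratio of 79.9 (95% exact interval 13.9 to 3210). In cKO it had no read in 2 untreated libraries and 3 and 28 reads after IFN-γ, which is at least 23-fold higher with a floor of 3 counts over the group.

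The enzymes around nitric oxide synthase rose less. Ass1 was at 8.23, 5.10 and 7.62 CPM in untreated WT and at 31.0, 23.8 and 35.2 CPM after IFN-γ, a 4.29-fold rise (adjusted p = 0.000225). In cKO it went from 8.36 and 13.4 CPM to 47.1 and 71.1 CPM, a 5.46-fold rise (adjusted p = 0.000473). Gch1 was at 21.8, 20.4 and 18.7 CPM in untreated WT and at 62.3, 77.7 and 61.1 CPM after IFN-γ (3.3-fold, adjusted p = 1.27e-05). In cKO it went from 29.7 and 28.6 CPM to 108.7 and 121.2 CPM (3.95-fold, adjusted p = 3.77e-05).

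Of the oxidase subunits, Cybb rose most in WT, from 626.0, 685.0 and 595.5 CPM to 1893, 2455 and 1935 CPM (log2 fold change 1.72 ± 0.279, adjusted p = 0.000932). In cKO it went from 574.6 and 589.3 CPM to 964.8 and 2316 CPM (1.496 ± 0.339, adjusted p = 0.00782). Ncf1 rose from 236.3 to 254.3 CPM to a range of 475.4 to 593.0 CPM in WT (1.14 ± 0.132, adjusted p = 0.00012) and by 1.12 ± 0.162 in cKO (adjusted p = 0.000691). Cyba rose by 0.88 ± 0.232 in WT (adjusted p = 0.0134) and by 1.35 ± 0.287 in cKO (adjusted p = 0.00566). The Cyba call in WT was lost without untreated replicate 1 (adjusted p = 0.0591) or treated replicate 3 (adjusted p = 0.0505). Ncf4 differed by 0.17 ± 0.235 in WT (adjusted p = 0.612) and by 0.10 ± 0.288 in cKO (adjusted p = 0.808), and its treated and untreated libraries overlapped. In cKO, the Cybb call was lost without untreated replicate 1 (adjusted p = 0.0664) or 2 (adjusted p = 0.0594), and the Cyba call without untreated replicate 1 (adjusted p = 0.0594). Fitting only the groups compared, the cKO calls of Cybb (adjusted p = 0.118), Cyba (0.109) and Ncf1 (0.0531) were lost. With the conflicting libraries placed by title all cKO calls were lost (0.947 to 0.965), and with them placed by library name all held. Of these libraries, the one titled without IFN-γ held 346.4 CPM of Nos2 and the one titled with it 0.3268 CPM. Without cKO IFN-γ replicate 1 the 6 genes still passed in cKO, with log2 fold changes of 6.28 for Acod1, 2.02 for Cybb and 0.79 for Cyba.

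Other genes of these pathways came from lists chosen with earlier results of these data known. Their counts are to be read against the 38.9% of all genes called in WT (19.5% higher) and the 33.9% called in cKO. Whether these genes had reads in the untreated libraries was not checked. Any that passed the filter only through treated libraries had to differ, as with Nos2 and Ido1. The counts of genes that rose are therefore descriptive. In WT, 4 of 6 other kynurenine genes rose, led by Kynu, kynureninase (8.57 ± 0.742), and Ido2 (5.04 ± 0.809), and none fell; in cKO 4 of 6 rose. Of 16 upstream regulators, 11 rose and 1 fell in WT, with Socs1, a feedback inhibitor of JAK signalling, higher by 6.99 ± 0.224, Irf1 higher by 4.98 ± 0.177 and Ifngr1, the receptor chain, lower by 0.80 ± 0.230. In cKO 10 rose and 1 fell. Of 16 antioxidant genes, 3 rose and 6 fell in WT, with Prdx5 (2.54) and Sod2 higher and Gclc and Hmox1 lower (-1.86 and -1.69). Of 5 other arginine and nitric oxide genes tested in WT, 1 rose, the arginine transporter Slc7a2 (1.40 ± 0.164), and 1 fell, Slc7a1 (-0.87 ± 0.201). Among 6 other oxidase genes, Nox1 (3.07 ± 0.638) and the chaperone Cybc1 (1.11 ± 0.151) rose. Of 5 tetrahydrobiopterin genes, Qdpr, which recycles the cofactor, fell (-0.73 ± 0.172). Of 11 genes of the itaconate and succinate list, 2 rose and 2 fell, with Idh2 (-1.62 ± 0.170) the lowest.

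Between genotypes, no member passed the test without IFN-γ (0 of 9, against 0.658% of all genes), although Gch1 and Ncf4 had an unadjusted p under 0.05 and DESeq2 called 0. Nos2 and Ido1 had at most 5 reads in any untreated library, too few to inform this comparison, so it speaks only for the other 7. With IFN-γ, 1 of 9 passed (5.48% of all genes): Gch1 was higher in cKO by 0.78 ± 0.152 (adjusted p = 0.0214). Ass1, at 47.1 and 71.1 CPM in cKO against 23.8 to 35.2 CPM in WT, differed by 0.99 ± 0.283 (adjusted p = 0.0708). The Gch1 call was lost without WT IFN-γ replicate 1 (adjusted p = 0.0709) or 3 (adjusted p = 0.0995). Without cKO IFN-γ replicate 1, Ass1 (1.27, adjusted p = 0.0146), Gch1 and Ncf4 (0.90, adjusted p = 0.0296) passed. Without cKO IFN-γ replicate 2, Acod1 turned to -1.34 from 0.05 (adjusted p = 0.0217), Cybb was lower by 1.15 and Cyba higher by 0.94. The difference between the IFN-γ responses of cKO and WT passed for 0 of 9 members (0% of all genes, 0 at an unadjusted p under 0.05, and 0 by DESeq2). Without cKO IFN-γ replicate 2 it passed for 3, with Acod1 lower by 2.03, Cybb lower by 1.02 and Cyba higher by 0.86.

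The time course compared cKO with WT during differentiation. On day 3, 1 of 8 members tested rose in cKO (8.65% of all genes), and it was Nos2. WT libraries held 0.614, 0.0587 and 0.618 CPM (9, 1 and 11 reads) and cKO libraries 12.8, 7.05 and 8.47 CPM (204, 103 and 162 reads). The groups did not overlap, and the log2 fold change was 4.45 ± 1.20 (adjusted p = 0.0297). The call was lost with an older setting of the quasi-likelihood fit (adjusted p = 0.052) and without any 1 of the 3 WT libraries or of cKO replicates 1 and 3 (adjusted p from 0.0572 to 0.122), and held without cKO replicate 2. On day 5, replicate 1 of cKO held 10.5 CPM and the others 0.343 and 0.287 CPM, against 0.103 to 1.19 CPM in WT. On day 7 both genotypes were at 0.0700 to 2.24 CPM.

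**Figure D3:**
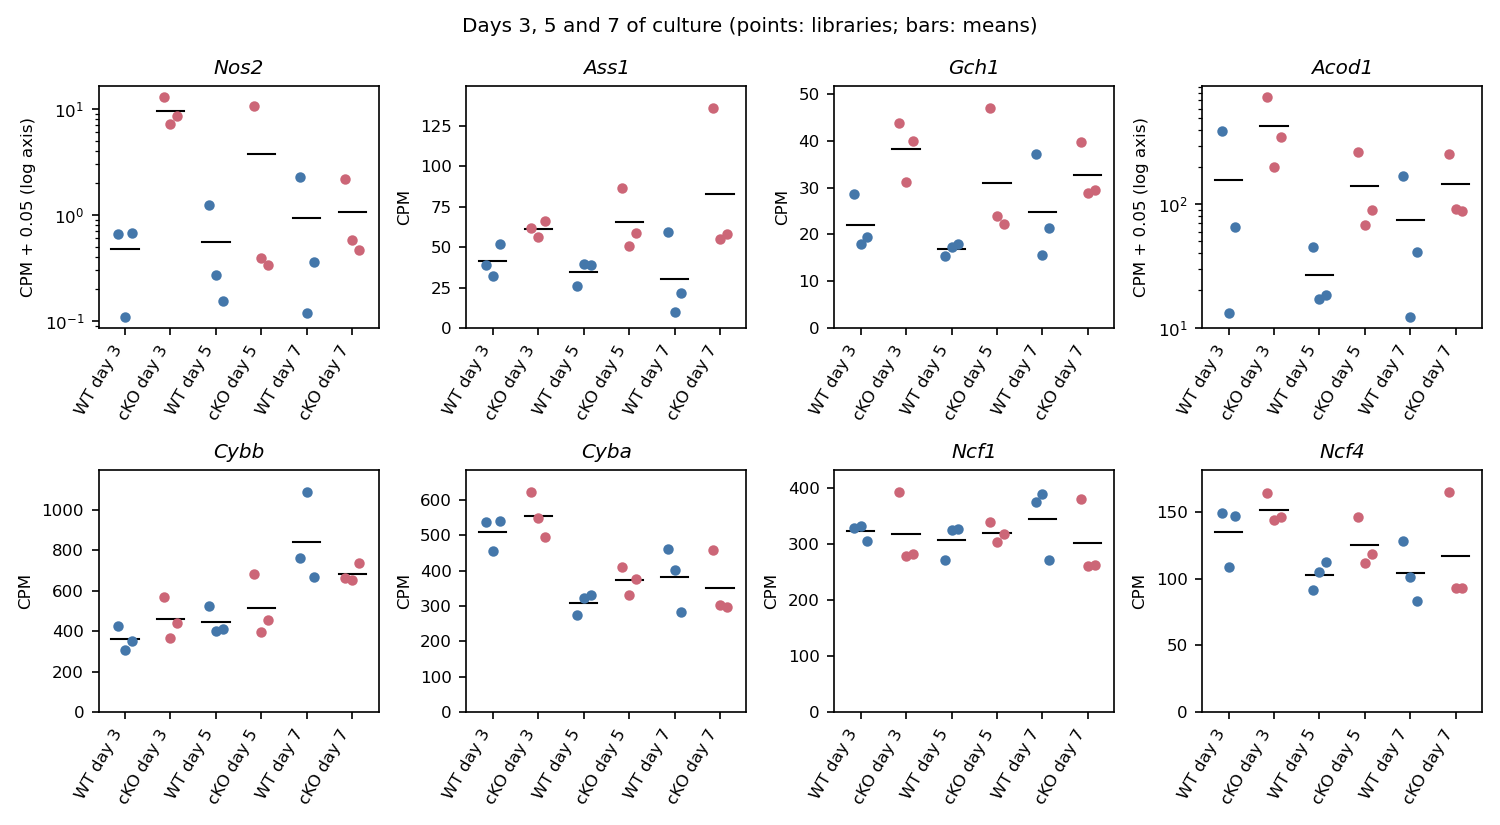
CPM of 8 members by day of culture (3, 5 or 7), with WT in blue and cKO in red, with points for libraries and bars for means; Nos2 and Acod1 are on a log axis with 0.05 added. The 3 cKO libraries of day 3 hold 7.05 to 12.8 CPM of Nos2, above all WT libraries.

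Acod1 was high early and spread widely. On day 3 it measured 396.8, 13.1 and 64.9 CPM in WT and 744.2, 202.1 and 349.8 CPM in cKO, and the groups overlapped (1.45 ± 1.01, adjusted p = 0.436). Same-numbered libraries deviated together here, with correlations of 0.13 to 0.42, and with the replicate number as a block 3 members passed: Nos2, Acod1 at 2.13 (adjusted p = 0.0156) and Gch1 at 0.82 (adjusted p = 0.0231). Gch1 was at 28.6, 17.95 and 19.5 CPM in WT and at 43.8, 31.1 and 39.9 CPM in cKO on day 3. Summed neutrophil markers were 1870 to 3420 CPM in WT and 2960 to 4450 CPM in cKO on that day. Summed B cell markers were 33.4 to 43.2 CPM in WT and 64.2 to 109 CPM in cKO, with 5 of 6 called higher. Summed dendritic cell markers were 53.2 to 100 and 254 to 399 CPM, with 3 of 6 called higher. Over all 15955 genes tested, 958 were called higher in cKO on day 3. Bst2 had the highest level of the dendritic cell list in every group. On day 8, the sum of that list in WT was 82.6 to 106 CPM untreated and 359 to 391 CPM with IFN-γ. It is thus not a measure of dendritic cells alone. Summed stromal markers on day 3 were 9.54 to 47.5 CPM in WT and 29.2 to 72.2 CPM in cKO. The part of these cell types in the differences was not tested. In bulk RNA, fewer cells of a type and less RNA per cell cannot be told apart.

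On day 5, 0 of 8 members passed (3.12% of all genes), with Nos2, Gch1 and Acod1 at an unadjusted p under 0.05 and 0 called by DESeq2. On day 7, 0 of 8 passed (1.82%), with Ass1 alone at an unadjusted p under 0.05 and 0 by DESeq2; with the replicate block 448 genes in place of 291 passed, and still 0 members. Ass1 on day 7 was 59.6, 9.94 and 21.6 CPM in WT and 136.1, 55.0 and 58.0 CPM in cKO. Without WT replicate 1, its difference of 1.45 ± 0.475 became 2.39 and passed (adjusted p = 0.0107). Summed stromal markers were 13.3 to 42.9 CPM in WT and 68.3 to 96.7 CPM in cKO on day 5. On day 7 they were 4.43 to 41.4 CPM in WT and 87.9 to 126 CPM in cKO, and their part was not tested.

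From day 3 to day 7, Cybb rose in WT from 426.4, 307.5 and 349.2 CPM to 763.0, 1087 and 669.2 CPM (1.22 ± 0.228, adjusted p = 0.00187), as 1 of 8 members that passed (24.5% of all genes). Without WT day 7 replicate 1, Ass1 (-1.38) and Cyba (-0.58) passed as well. In cKO, 2 of 8 passed (14.7%), both lower: Nos2 by -3.22 ± 1.03 (adjusted p = 0.0469) and Cyba by -0.66 ± 0.190 (adjusted p = 0.0284). Nos2 was lost with the older setting (adjusted p = 0.0868), with DESeq2 (0.103) and without any 1 library other than cKO day 7 replicate 1. Cyba, at 621.9, 549.9 and 494.4 CPM on day 3 and 457.5, 302.1 and 296.0 CPM on day 7, was lost without day 3 replicate 1 or 2 or day 7 replicate 2 or 3 (adjusted p from 0.0742 to 0.142). Without day 7 replicate 1, Ncf4 was also called lower (-0.70, adjusted p = 0.0166). With the replicate block, Acod1 joined them at -1.53 (adjusted p = 0.0483). All 10 neutrophil markers fell over the same days in both genotypes, where 1904 of all 15955 genes were called lower in WT and 1316 in cKO. The part of these markers was not tested. The change of the cKO effect between days 3 and 7 passed for 0 of 8 members (0.0439% of all genes), with Nos2 at an unadjusted p under 0.05 and 0 by DESeq2.

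Around the members, Arg1, the arginase that competes for arginine, was lower in cKO on day 3 (-2.54 ± 0.730, adjusted p = 0.0398), while 6 of 16 upstream regulators rose, led by Stat2 (2.83 ± 0.434), and 1 fell (Ifnar1), against 8.65% of all genes called. In WT, 12 of 15 antioxidant genes fell from day 3 to day 7, where 1904 of 15955 genes fell, and in cKO 6 of 15 fell, where 1316 did; the WT list was led by the cystine transporter Slc7a11 (-4.69 ± 0.654) and Hmox1 (-2.90 ± 0.484).

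In the 3 sets of BMDMs, Ass1 rose in cKO each time. Whether sets 1 and 3 share material is not known (above), so a result seen in both may not be a separate repeat. Set 1 had 6.20, 8.19 and 5.22 CPM in WT and 27.03, 24.5 and 25.5 CPM in cKO (log2 fold change 1.95 ± 0.223, adjusted p = 3.81e-07). Set 2 had 8.29, 8.05 and 7.10 CPM in WT and 16.7, 20.5 and 16.4 CPM in cKO (1.19 ± 0.212, adjusted p = 0.000167). Set 3 had 3.23, 7.87 and 5.08 CPM in WT and 19.9, 25.8 and 22.9 CPM in cKO (2.10 ± 0.228, adjusted p = 1.53e-07). The groups did not overlap in any set. The copy Gm5424 rose in set 3 (2.57 ± 0.453) from at most 0.195 CPM to between 0.675 and 0.850 CPM, far below Ass1 itself.

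**Figure D4:**
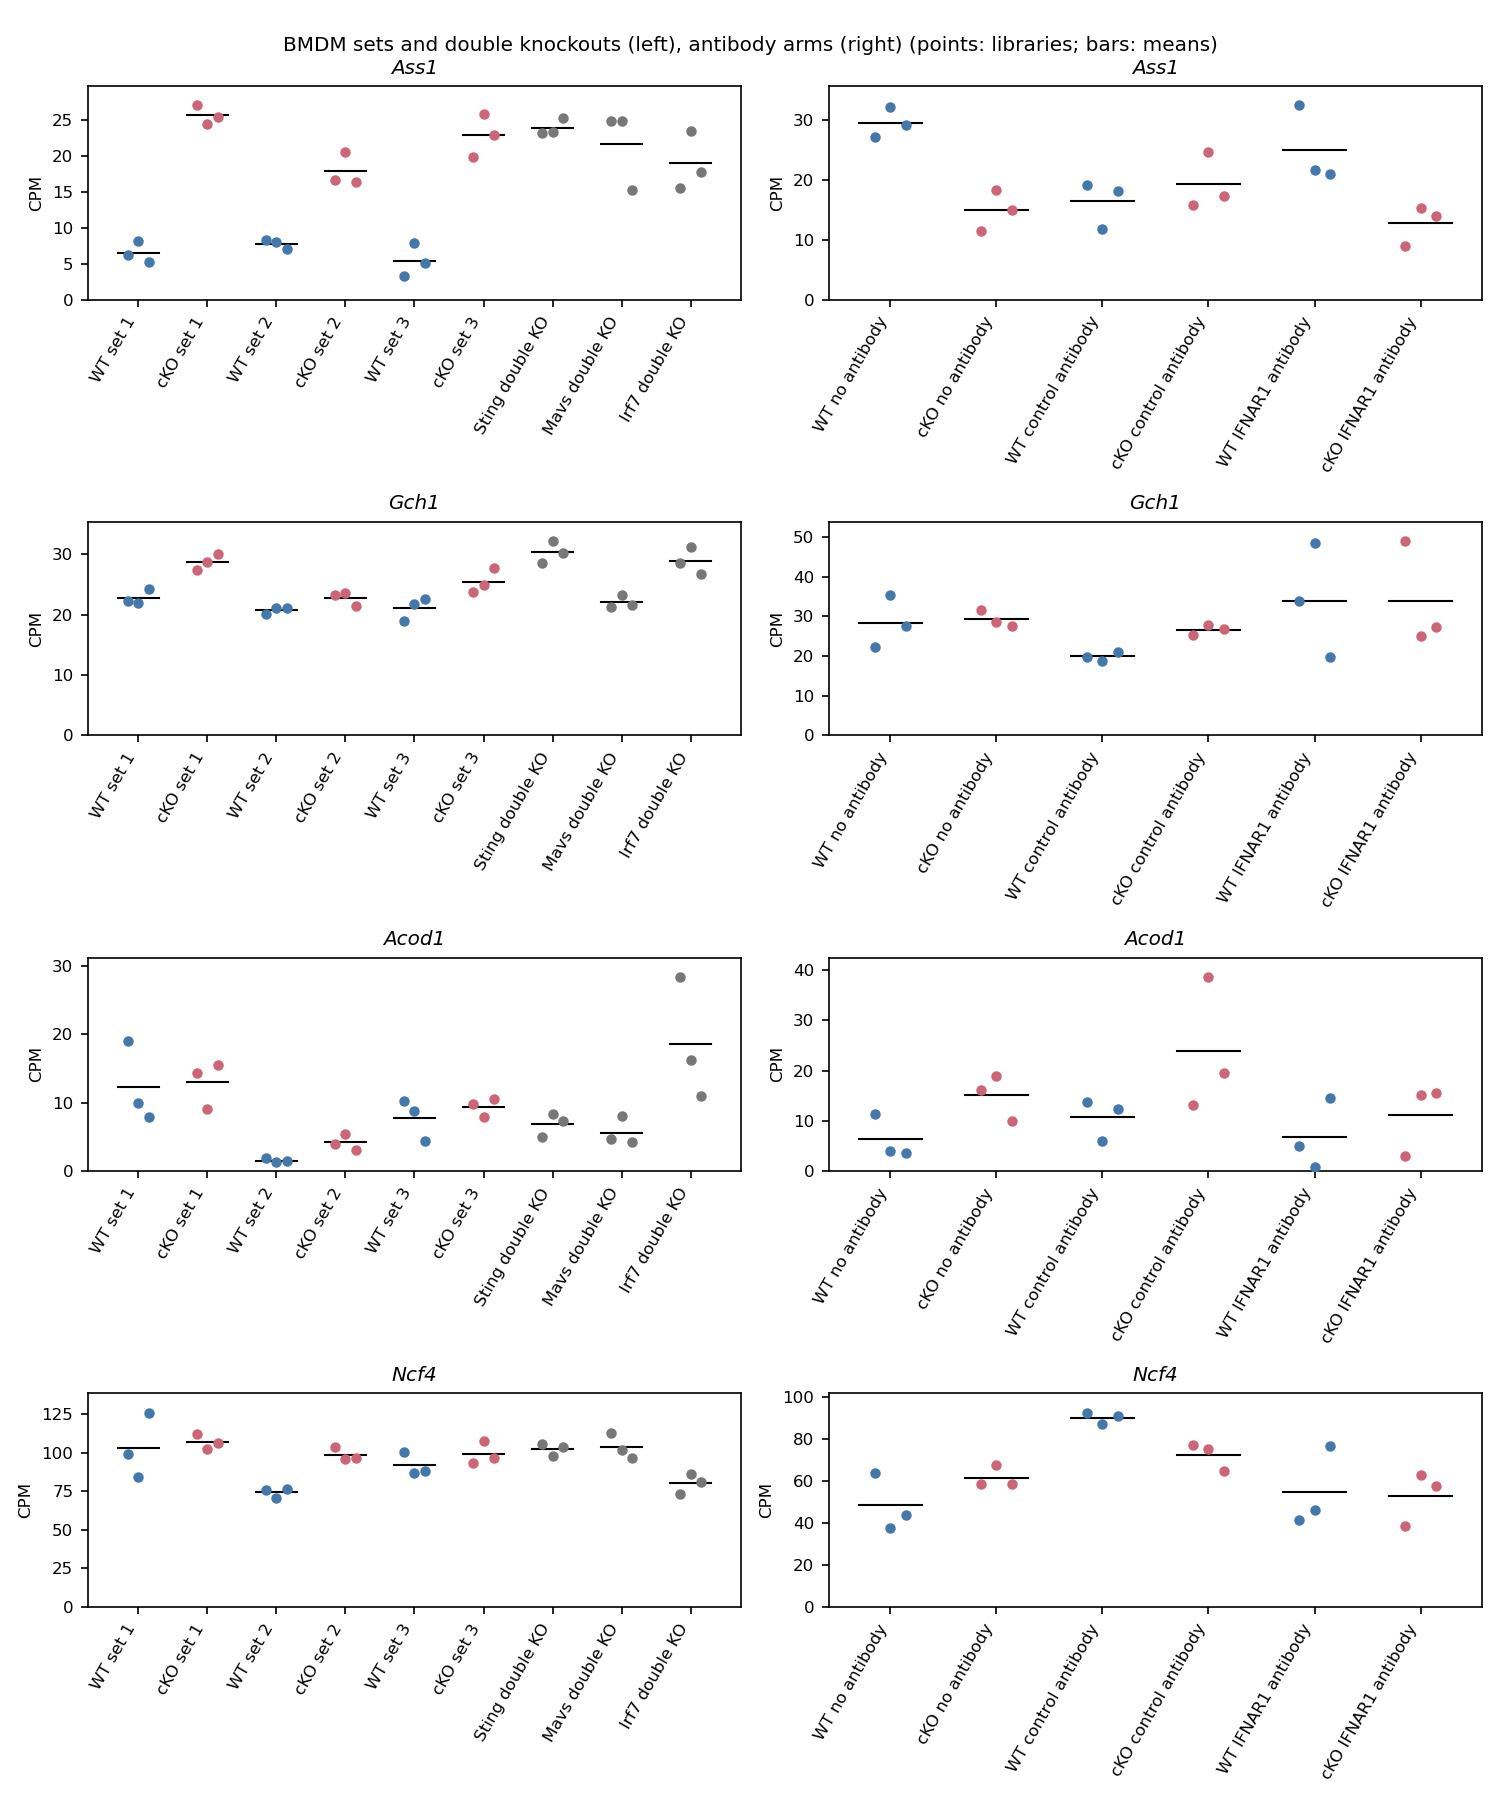
CPM of Ass1, Gch1, Acod1 and Ncf4 in the sets and double knockouts (left) and in the antibody arms (right), with WT in blue, cKO in red and double knockouts in grey; points are libraries and bars are means. Ass1 is 3.23 to 8.29 CPM in WT and 16.4 to 27.03 CPM in cKO on the left.

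The number of members that passed was 2 of 8 in set 1 (34.6% of all genes), 3 of 8 in set 2 (21.9%) and 3 of 8 in set 3 (35.9%). Gch1 was higher in cKO in set 1 (0.33 ± 0.0841, adjusted p = 0.00322) and set 3 (0.28 ± 0.0840, adjusted p = 0.0118), and the set 3 call was lost without WT replicate 1 (adjusted p = 0.0893) or cKO replicate 3 (0.095). In set 2 it was 20.1 to 21.2 CPM in WT and 21.4 to 23.7 CPM in cKO, a difference of 0.13 ± 0.0829 (adjusted p = 0.293). Acod1 rose in set 2, from 1.87, 1.31 and 1.43 CPM to 4.02, 5.501 and 3.13 CPM (1.45 ± 0.436, adjusted p = 0.0175). That call was lost without WT replicate 2 or 3 or cKO replicate 2 (adjusted p from 0.0537 to 0.08). In sets 1 and 3 Acod1 differed by 0.08 ± 0.335 and 0.25 ± 0.348, with overlapping groups.

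Nos2 was low in all 3 sets. WT replicate 1 of set 1 held 2.51 CPM and WT replicate 1 of set 3 held 1.63 CPM, and every other WT or cKO library of the sets held 0.0505 to 0.486 CPM. The cKO difference was -1.68 ± 0.729 in set 1 (adjusted p = 0.078) and passed without WT replicate 2 (-2.24, adjusted p = 0.0142) or 3 (-2.06, adjusted p = 0.03).

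The oxidase subunits moved little. Ncf4 rose in set 2, from 76.1, 71.0 and 76.8 CPM to 103.7, 96.3 and 96.5 CPM (0.41 ± 0.103, adjusted p = 0.00527). Cybb fell in set 3, from 990.7, 631.0 and 664.0 CPM to 575.6, 581.5 and 572.8 CPM (-0.40 ± 0.145, adjusted p = 0.0327). The Cybb call was lost without WT replicate 1 (-0.17, adjusted p = 0.366) or any 1 cKO library (0.0686 to 0.0812), and with DESeq2 (0.0606). Without WT replicate 2 of set 1, Cybb passed there as well (-0.41, adjusted p = 0.0444), and without WT replicate 1, Cyba did (-0.44, adjusted p = 0.0416). In set 3, Ncf1 passed without WT replicate 2 (-0.26, adjusted p = 0.0463) or cKO replicate 2 (-0.28, adjusted p = 0.0314). Summed neutrophil markers were 110 to 167 CPM in WT and 286 to 354 CPM in cKO in set 1, 138 to 217 and 189 to 211 CPM in set 2, and 105 to 169 and 265 to 387 CPM in set 3. Dendritic cell markers summed to 117 to 205 CPM in WT and 217 to 288 CPM in cKO in set 1 (6 of 7 called higher), to 217 to 229 and 147 to 198 CPM in set 2 (4 of 7 higher, with a lower sum) and to 116 to 171 and 178 to 245 CPM in set 3 (6 of 7 higher). B cell markers summed to 110 to 188 and 43.3 to 60.6 CPM in set 1 (4 of 6 higher and Ighm lower), to 19.7 to 26.7 and 33.2 to 39.9 CPM in set 2 (2 of 6 higher) and to 95.1 to 193 and 39.1 to 60.5 CPM in set 3 (3 of 6 higher and Ighm lower). These marker counts are to be read against the 3230, 1826 and 3085 of all 18083 genes tested that were called higher in sets 1, 2 and 3. Bst2 again had the highest level of the dendritic cell list. Stromal markers summed to 11.4 to 31.0 CPM in WT and 27.5 to 47.3 CPM in cKO in set 1. They summed to 30.1 to 87.3 and 35.5 to 70.0 CPM in set 2 and to 11.5 to 15.5 and 23.7 to 33.5 CPM in set 3. The part of these cell types in the members' differences was not tested.

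Other genes of these pathways moved in both directions in the sets. Arg1 fell in set 1 (-3.55 ± 0.514) and set 3 (-3.11 ± 0.463). Kynu rose in all 3 sets (1.70, 2.77 and 1.64). Of 7 other oxidase genes, 1 rose and 2 fell in each set, against 34.6, 21.9 and 35.9% of all genes called in sets 1, 2 and 3.

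The double knockouts were compared with the mean of the 3 cKO sets, because the labels do not say which set belongs to which double knockout; set and genotype therefore cannot be told apart here. Within this experiment the libraries of set 3 and Irf7KO list 54146 genes and the others do not; those of the day 8, peritoneal and antibody experiments list 54146 as well. Summed stromal markers were 164 to 202 CPM with StingKO, 82.7 to 294 CPM with MavsKO and 29.7 to 48.1 CPM with Irf7KO, and their part was not tested. With StingKO, 2 of 8 members passed (36.4% of all genes). Cyba was higher, at 688.4, 563.3 and 681.1 CPM against 316.1 to 498.2 CPM in the 9 cKO libraries (0.69 ± 0.127, adjusted p = 0.000189). Gch1 was higher by 0.25 ± 0.0669 (adjusted p = 0.0054), with overlapping libraries, and was lost against cKO set 1 alone (0.08, adjusted p = 0.533) and without StingKO replicate 2 (adjusted p = 0.0539). With MavsKO, 0 of 8 passed (9.32%); Gch1 had an unadjusted p under 0.05 (-0.21 ± 0.0684, adjusted p = 0.0558), and DESeq2 called 1. Without cKO replicate 3 of set 2 or replicate 1 of set 3, Gch1 passed (adjusted p = 0.0484 and 0.041).

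Mean H3f3b was 121 CPM with Irf7KO, 212 with StingKO and 196 with MavsKO, against 203, 203 and 194 CPM in cKO sets 1, 2 and 3. Mean H3f3a was 4.81 CPM with Irf7KO, against 10.5, 8.75 and 8.19 CPM in these cKO sets. The part of these lower H3.3 levels in the Irf7KO differences was not tested. With Irf7KO, 3 of 8 passed (10.6%). Acod1 was at 28.4, 16.3 and 11.1 CPM against 3.13 to 15.6 CPM in the cKO libraries (1.21 ± 0.256, adjusted p = 0.0031). Ncf4 was at 73.1, 86.6 and 81.0 CPM, below the 93.2 to 112.2 CPM of all cKO libraries (-0.34 ± 0.0858, adjusted p = 0.0116), and Ncf1 was lower by -0.28 ± 0.0759 (adjusted p = 0.0197). All 3 calls were lost without Irf7KO replicate 1 (adjusted p from 0.11 to 0.116), the Ncf1 call also without replicate 2 (0.0767), and all 3 against cKO set 3 alone (0.17 to 0.457); Acod1 was also lost against set 1 alone (0.52, adjusted p = 0.35) and Ncf1 against set 2 alone (0.18). Ass1 stayed between 15.3 and 25.2 CPM in the 9 double knockout libraries, and its differences from cKO were 0.13 ± 0.164, -0.01 ± 0.163 and -0.20 ± 0.167 with StingKO, MavsKO and Irf7KO.

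In the antibody experiment, Ass1 went the other way. Without antibody, WT libraries held 27.2, 32.2 and 29.1 CPM and cKO libraries 11.5, 18.3 and 15 CPM (-0.99 ± 0.252, adjusted p = 0.0258), and it was the 1 of 7 members that passed (8.16% of all genes). The call was lost without WT replicate 2 or 3 or cKO replicate 1 or 3 (adjusted p from 0.0799 to 0.118). The copy Gm5424 was lower too (-1.56 ± 0.373, at 0.213 to 1.27 CPM). H3f3b was lower in the cKO of this experiment than in the other cKO groups (above), the cells were lysed on day 6, and the summed neutrophil markers were 36.4 to 66.1 CPM in WT and 74.1 to 96.6 CPM in cKO; the part of these in the Ass1 result was not tested.

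With the control antibody, 0 of 7 members passed between cKO and WT (5.11%), 0 had an unadjusted p under 0.05 and DESeq2 called 0. Ass1 was then at 19.1, 11.8 and 18.2 CPM in WT and 15.8, 24.6 and 17.3 CPM in cKO. With the IFNAR1 antibody, 0 of 7 passed (0.698%), Ass1 and Cybb had an unadjusted p under 0.05, and DESeq2 called 1. Ass1 was at 32.4, 21.6 and 21.0 CPM in WT and at 9.004, 15.3 and 14.01 CPM in cKO (-0.98 ± 0.256, adjusted p = 0.113). Without WT replicate 3 of that arm, Ass1 (-1.09, adjusted p = 0.0378) and Cybb (-0.82, adjusted p = 0.0498) passed, and without cKO replicate 1, Cybb did (-0.97, adjusted p = 0.0305).

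The control antibody itself moved 2 of 7 members in WT (9.74%). Ass1 fell (-0.85 ± 0.252, adjusted p = 0.0441), and Ncf4 rose from 63.8, 37.5 and 44.1 CPM to 92.7, 87.5 and 91.0 CPM (0.90 ± 0.231, adjusted p = 0.0264). Both calls were lost without any 1 library other than WT no antibody replicate 1 (adjusted p from 0.0668 to 0.191), and without that library Ncf1 passed too (0.45). Same-numbered libraries deviated together (0.15 to 0.28), and with the replicate block Ass1 no longer passed (adjusted p = 0.0535) and Cyba did (0.47, adjusted p = 0.0296). In cKO, 0 of 7 passed (2.09%), with Cyba at an unadjusted p under 0.05 and 0 by DESeq2.

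Blocking the type I interferon receptor, against the control antibody, lowered 1 of 7 members in WT (11.2%). Cyba was at 314.0, 508.6 and 357.2 CPM with the IFNAR1 antibody and 594.7, 577.7 and 551.4 CPM with the control (-0.55 ± 0.164, adjusted p = 0.0436). This was lost with another normalisation (adjusted p = 0.0518) and without any 1 control library or IFNAR1 replicate 1 (0.0966 to 0.171). Without IFNAR1 replicate 3, Ass1 (0.73) and Gch1 (1.04) passed as higher with the IFNAR1 antibody, and Cyba and Ncf4 (-1.04) as lower. In cKO, 0 of 7 passed (4.68%), with Ass1 at an unadjusted p under 0.05 and 0 by DESeq2. The difference in the response to blockade between cKO and WT passed for 0 of 7 members (0% of all genes, 990 genes at an unadjusted p under 0.05); Ass1 differed most (-1.19 ± 0.364, adjusted p = 0.557) and alone had an unadjusted p under 0.05, and DESeq2 called 0.

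In peritoneal macrophages, Cybb was higher than in any BMDM group, and Nos2 and Ass1 were close to absent. These libraries were normalised separately, and the study's methods name another library kit for them. Tissue, library preparation and normalisation therefore cannot be told apart in this contrast. Cybb was at 2831, 3515 and 4341 CPM in WT and 4260, 4014 and 5095 CPM in cKO. Nos2 had 3 reads in the WT libraries and 1 in the cKO libraries, and Ass1 was at 0.142 to 1.33 CPM. Gch1 was high, at 65.3 to 77.9 CPM in WT and 64.6 to 83.2 CPM in cKO. Ido1, at 0.501 to 1.69 CPM, was measurable without IFN-γ. Between genotypes, 0 of 7 members passed (1.06%), Acod1 alone had an unadjusted p under 0.05 (1.1 ± 0.473, from 1.12 to 2.41 CPM in WT to 2.31 to 6.11 CPM in cKO, adjusted p = 0.507), and DESeq2 called 0.

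**Figure D5:**
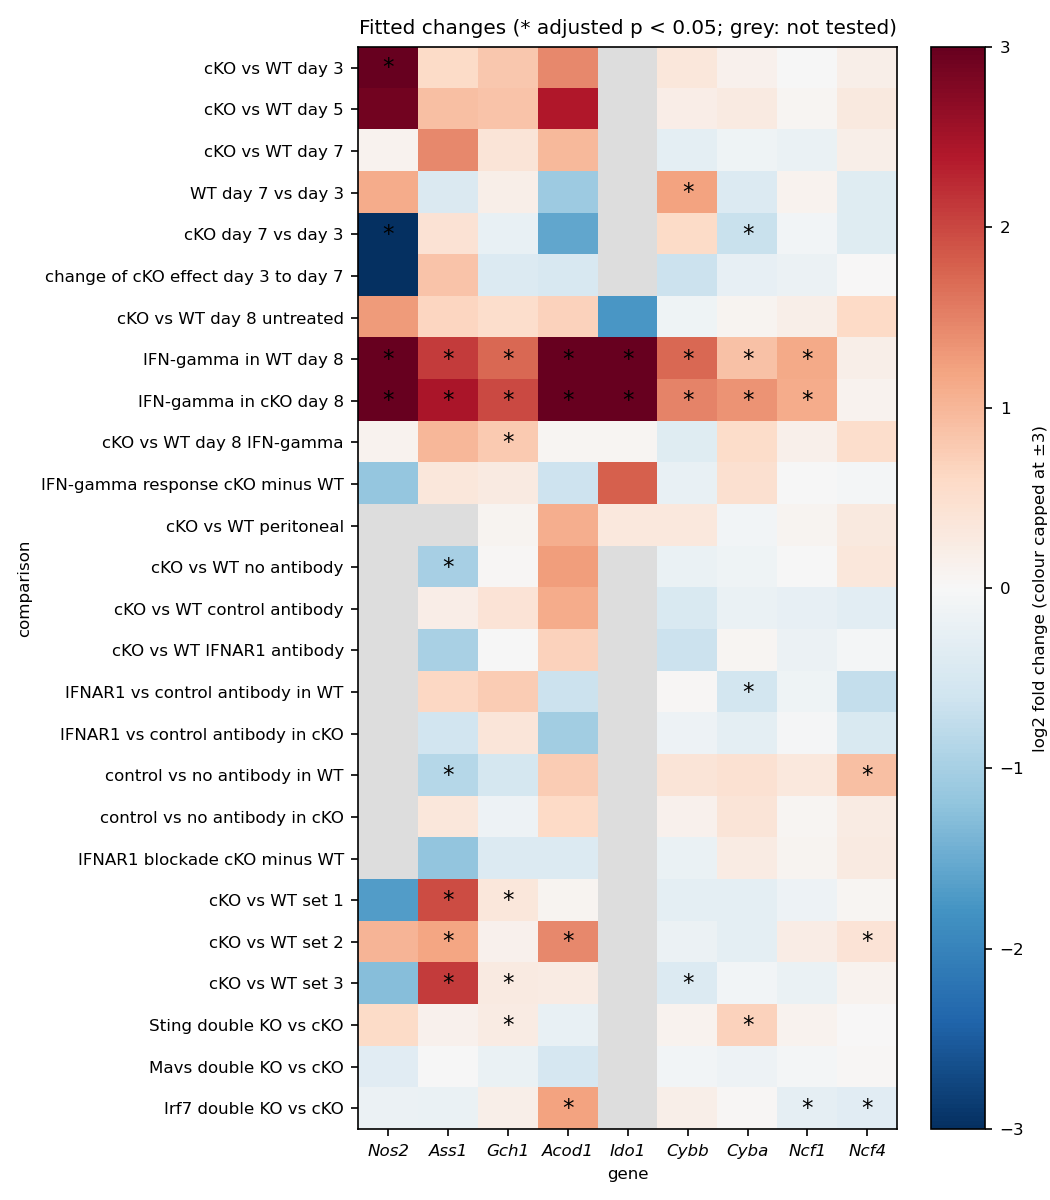
Log2 fold change of each gene (columns) in the 26 comparisons (rows), red for higher and blue for lower, with an asterisk where the adjusted p was under 0.05 and grey where the gene was not tested. The 2 rows of the IFN-γ response hold 8 asterisks each, including those of Nos2 and Ido1, which passed the filter only through treated libraries. No other row holds more than 3.

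Low counts kept some members out of the tests: Ido1 was tested only at day 8 and in peritoneal macrophages, Nos2 not in the antibody experiment or peritoneal macrophages, and Ass1 not in peritoneal macrophages. For each member, the 3 genes whose group means ran closest to it were taken by Pearson's r of log2 CPM over 27 groups, centred within each experiment; r over the 23 groups outside day 8 follows each value. The 27 points share libraries' normalisation and the 4 day 8 groups weigh heavily, so that these are descriptions. Nos2 ran closest to Nod1 (0.95 and 0.80), Stat3 (0.95 and 0.70) and Hk3 (0.94 and 0.68). Ass1 ran closest to Dcaf15 (0.91 and 0.87), Tgm2 (0.89 and 0.86) and Trp53i11 (0.87 and 0.83). Gch1 ran closest to Mafk and Usb1 (0.95 and 0.84 each) and Psmb8 (0.95 and 0.86). For Acod1 they were Stx3 (0.91 and 0.78), Pnp2 (0.90 and 0.81) and Mlkl (0.90 and 0.74), and for Ido1 Il12rb1 (0.95 and 0.71), Abhd16a (0.94 and 0.58) and Gca (0.94 and 0.74). For Cybb they were Gdap10 (0.90 and 0.75), Cxcl16 (0.89 and 0.74) and Rab22a (0.88 and 0.77), and for Cyba Fis1 (0.95 and 0.93), Phf23 (0.93 and 0.88) and Mlf2 (0.93 and 0.89). For Ncf1 they were Dexi (0.94 and 0.78), Eloa (0.92 and 0.70) and Tceanc2 (0.91 and 0.67), and for Ncf4 Ilvbl (0.84 and 0.84), Araf (0.83 and 0.85) and Ciao1 (0.80 and 0.81).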

How the data were processed

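RNA-seq reads had been trimmed with Cutadapt and aligned with STAR to mm10 by the authors (versions and strand setting not given in the sources used here), and the authors deposited per-gene read counts, of which the unstranded column was used. Replicates, called biological in the labels, were not pooled. Reads in no feature (3.76 to 28.9%), in several places (5.81 to 17.5%) or ambiguous (3.16 to 6.23%) stayed out of library sizes. Per the labels, libraries were rRNA-depleted NEBNext Ultra II libraries; the study's methods name SMART-Seq v4 for peritoneal cells. Groups followed the labels; 2 day 8 libraries with conflicting labels were left out.

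Each experiment was fitted separately with edgeR 4.0.16 (R 4.3.3): genes filtered by group (minimum count 10, total 15), TMM normalisation, quasi-likelihood F test, Benjamini-Hochberg adjustment over all genes, called at an adjusted p under 0.05. CPM used the same normalisation, and the symbol ± gives the SE of a log2 fold change. The current quasi-likelihood setting (legacy off) was adopted after the results of the older setting had been seen, and the older one was added as an alternative after seeing the data. DESeq2 1.42.0 was another alternative. Scripts were tested on simulated data.

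The members and wider lists were chosen with earlier results of these data known. All members are described; from each wider list, at most 2 genes called higher and 2 called lower with the largest change are named. Some genes of these lists are not reported here. For each member the 3 genes with the most similar pattern are named.

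Among groups compared with each other, replicate numbers were taken to pair them only where all 3 same-numbered pairs correlated above 0.1. These were cKO with WT on day 3 (0.13 to 0.42), on day 7 (0.15 to 0.47) and in peritoneal cells (0.14 to 0.19). The others were cKO on days 3 and 7 (0.14 to 0.42), IFN-γ in WT (0.33 to 0.45) and control with no antibody in WT (0.15 to 0.28). WT sets 1 and 3, which were not compared, correlated at 0.14 to 0.39.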

Additional observations from a re-analysis of the deposited data

Results flagged for a closer look

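The 2 cKO day 8 libraries whose labels disagree were used in no comparison, and their values stood above the highest untreated WT library for several members. The library titled with IFN-γ held 0.3268 CPM of Nos2, 12.42 of Ass1, 26.55 of Gch1, 21.65 of Acod1, 267.0 of Ncf1 and 139.5 of Ncf4. The library titled without IFN-γ held 346.4 CPM of Nos2, 65.76 of Ass1, 110.8 of Gch1, 1351 of Acod1, 3.647 of Ido1, 2183 of Cybb, 552.8 of Cyba, 526.3 of Ncf1 and 172.4 of Ncf4. Which label is right was not tested.

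For 4 members, all cKO libraries lay above all WT libraries in some comparisons and below them in others; the difference between those comparisons was not tested. Of 12792 genes tested in the time course, day 8, antibody and set experiments, 42.5% did the same over the 12 comparisons, so that such a pattern is common in these data. The log2 fold change of Ass1 was 0.577 on day 3, 0.909 on day 5, 0.637 on day 8, 0.986 on day 8 with IFN-γ, 1.95, 1.19 and 2.102 in sets 1, 2 and 3, and -0.986 without antibody and -0.979 with the IFNAR1 antibody. That of Cyba was 0.267 on day 5 and -0.302 in set 2. That of Ncf1 was 0.171 on day 8 and 0.224 in set 2, against -0.249 with the control and -0.165 with the IFNAR1 antibody. That of Ncf4 was 0.588 on day 8, 0.291 in peritoneal cells and 0.406 in set 2, against -0.317 with the control antibody. Among these, Ass1 without antibody and in the 3 sets and Ncf4 in set 2 passed the test. No group held 4 or more libraries, so that single outlying libraries were not tested for.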

How the results depend on the processing

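Over the alternatives other than leaving out a library, the number of members called stayed within 1.5 times of the reported number in 143 of 172 cases and moved in 29; the causes were not tested. With the replicate block it was 3 for cKO against WT on day 3, 1 on day 5, 0 on day 8 with IFN-γ and 1 for MavsKO; day 5, IFN-γ and MavsKO numbers share only a number, and the block moved no other member count by over 1.5 times. With the older quasi-likelihood fit, chosen after seeing the data, it was 0 on day 3 and 1 for cKO day 7 against 3. Fitting only the groups compared gave 2 on day 3, 1 for untreated day 8, 4 for IFN-γ in cKO, 0 for cKO against WT with IFN-γ, 3 with the control antibody, 0 for IFNAR1 against control in WT, 1 for control against none in cKO, 6 in set 2, 1 in set 3 and 1 for MavsKO. DESeq2 gave 1 for cKO day 7 against 3, 2 for cKO against WT with IFN-γ, 1 with the IFNAR1 antibody, 3 for IFNAR1 against control in WT and 1 for MavsKO. For IFNAR1 against control in WT, another size factor (RLE) and no filter each gave 0. Placing the conflicting libraries by title gave 0 for IFN-γ in cKO and 0 for cKO against WT with IFN-γ; placing them by library name gave 2 for the latter. Against cKO set 1 alone, StingKO gave 1 and MavsKO 2; against set 3 alone, Irf7KO gave 0.

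Leaving out 1 library at a time gave these ranges of members called: 0 to 1 on day 3, 0 to 0 on day 5, 0 to 1 on day 7, 1 to 3 for WT day 7 against 3, 0 to 3 for cKO day 7 against 3, 0 to 0 for the change of effect, 0 to 0 for untreated day 8, 7 to 8 for IFN-γ in WT, 6 to 8 in cKO, 0 to 4 for cKO against WT with IFN-γ, 0 to 3 for the difference of responses, 0 to 0 in peritoneal cells, 0 to 1 without antibody, 0 to 0 with control antibody, 0 to 2 with IFNAR1 antibody, 0 to 4 for IFNAR1 against control in WT and 0 to 0 in cKO, 0 to 3 for control against none in WT and 0 to 0 in cKO, 0 to 0 for the blockade difference, 2 to 4, 2 to 3 and 1 to 4 in sets 1, 2 and 3, and 1 to 2, 0 to 1 and 0 to 3 for StingKO, MavsKO and Irf7KO. The counts for IFN-γ in WT and in cKO, here and above, take in Nos2 and Ido1, which passed the filter only through the treated libraries. One reversal occurred: Acod1 between cKO and WT with IFN-γ went from 0.05 to -1.34 without cKO replicate 2 (0.76 without replicate 1). With an arm of 1 library left, that library was assumed to vary like the others.

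The number of all genes called also moved. The difference of IFN-γ responses, with 0 genes, gave 125 with no filter, 49 with DESeq2, 19 by library name and 1 with the block; the blockade difference, with 0, gave 48 with DESeq2 and 1 with RLE; the change of the cKO effect, with 7, gave 65 with no filter, 155 with the block, 141 with only the groups compared and 442 with DESeq2. With no filter, untreated day 8 went from 86 to 315, day 8 with IFN-γ from 717 to 1326 and peritoneal cells from 131 to 673. With the block, day 7 went from 291 to 448, untreated day 8 from 86 to 55, day 8 with IFN-γ from 717 to 174 and control against none in cKO from 359 to 707. With DESeq2, day 7 gave 721, untreated day 8 183, day 8 with IFN-γ 1200, peritoneal cells 336, no antibody 2187 (from 1403), IFNAR1 antibody 306 (from 120), IFNAR1 against control 3149 in WT (from 1928) and 1231 in cKO (from 805), and control against none in cKO 636. With only the groups compared, day 3 went from 1380 to 2406, day 5 from 497 to 129, day 7 to 19, WT day 7 against 3 from 3909 to 1035, untreated day 8 to 374, IFN-γ in cKO from 4435 to 1043, day 8 with IFN-γ to 9, control antibody from 878 to 3568, IFNAR1 antibody to 12, IFNAR1 against control to 0 in WT and 232 in cKO, control against none from 1674 to 2723 in WT and to 1645 in cKO, set 3 from 6493 to 4214 and MavsKO from 1686 to 2629. By title, untreated day 8 gave 10, IFN-γ in cKO 0 and day 8 with IFN-γ 17; by library name, 166 and 1204 for the first and last. Against set 1 alone, StingKO went from 6579 to 4093; against sets 2 and 3 alone, MavsKO gave 158 and 3453 and Irf7KO, from 1909, 3758 and 222.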
